A study of Mus musculus with 5 samples.

Results

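The 9 genes described here encode amino acid carriers and the cell-surface receptor for transferrin. They were taken by gene symbol from the array platform's annotation: Slc3a2, Slc7a1, Slc7a5, Slc7a6, Slc1a4, Slc1a5, Slc38a1, Slc38a2 and Tfrc. They are 9 of 18193 genes that have a probe set with 1 gene symbol, and 23 probe sets carry their symbols. Of these probe sets 20 are regular and 3 are array controls, all for Tfrc. Each of the 9 genes had a probe set in the gene comparison, and 18 of the 20 regular probe sets were bright enough to be tested.

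Expression was measured on 5 Affymetrix arrays, 3 of activated and 2 of naive CD4+ T cells. All cells came from adult SCID mice on a Balb/c background, aged 7 to 12 weeks, which are transgenic for a T cell receptor against MOPC315 myeloma and as SCID mice lack most other lymphocytes. For the activated group 100000 MOPC315 myeloma cells in 250 µl of growth factor-reduced Matrigel were placed under the skin of the flank. On day 8 the draining axillary lymph nodes were pooled (n = 12 to 15 mice), and CD4+ GB113+ cells were sorted to a purity of at least 95%, in 3 separate experiments. The naive group was CD4+ cells from pooled lymph nodes of unchallenged mice of the same kind, treated identically per the design text, in 2 separate experiments. The treatment field of the naive samples repeats the myeloma challenge, and the samples were taken as naive from their titles and descriptions. For them, the sources used here state neither the number of mice nor the sort purity. No group given Matrigel alone was analysed here.

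Amino acid carriers set how fast a cell can import the building blocks of protein and nucleotides. Slc3a2 (CD98 heavy chain) is a chaperone that takes light chains such as Slc7a5 (LAT1) and Slc7a6 (y+LAT2) to the membrane. LAT1 exchanges large neutral amino acids such as leucine, and y+LAT2 exchanges cationic for neutral ones. Slc7a1 (CAT1) imports arginine and lysine, Slc1a5 (ASCT2) and Slc1a4 (ASCT1) exchange small neutral amino acids, and Slc38a1 (SNAT1) and Slc38a2 (SNAT2) import glutamine and alanine with sodium. Tfrc binds iron-loaded transferrin and carries it into the cell. In T cells stimulated in culture, LAT1, CD98, ASCT2 and the transferrin receptor are classical markers of growth, and Slc38a2 is known to be induced when amino acids are short.

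The genes did not move together. Tfrc and Slc38a1 were higher in activated cells, Slc38a2 was lower, and the other 6 did not pass the test. With intensities on the deposited linear scale, Tfrc was 2.55-fold higher in activated cells, Slc38a1 1.89-fold higher and Slc38a2 1.83-fold lower, as ratios of group means. So 2 of the 9 genes were called higher and 1 lower, at an adjusted p under 0.05. Over all 12873 genes tested, 6.36% were called higher and 4.14% lower. At such small numbers these counts say little about the 9 genes as a group, and the values of each gene are what the following paragraphs give. The data are of bulk RNA, so a change in the share of cells with a transcript and a change in transcript per cell cannot be told apart.

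**Figure D1:**
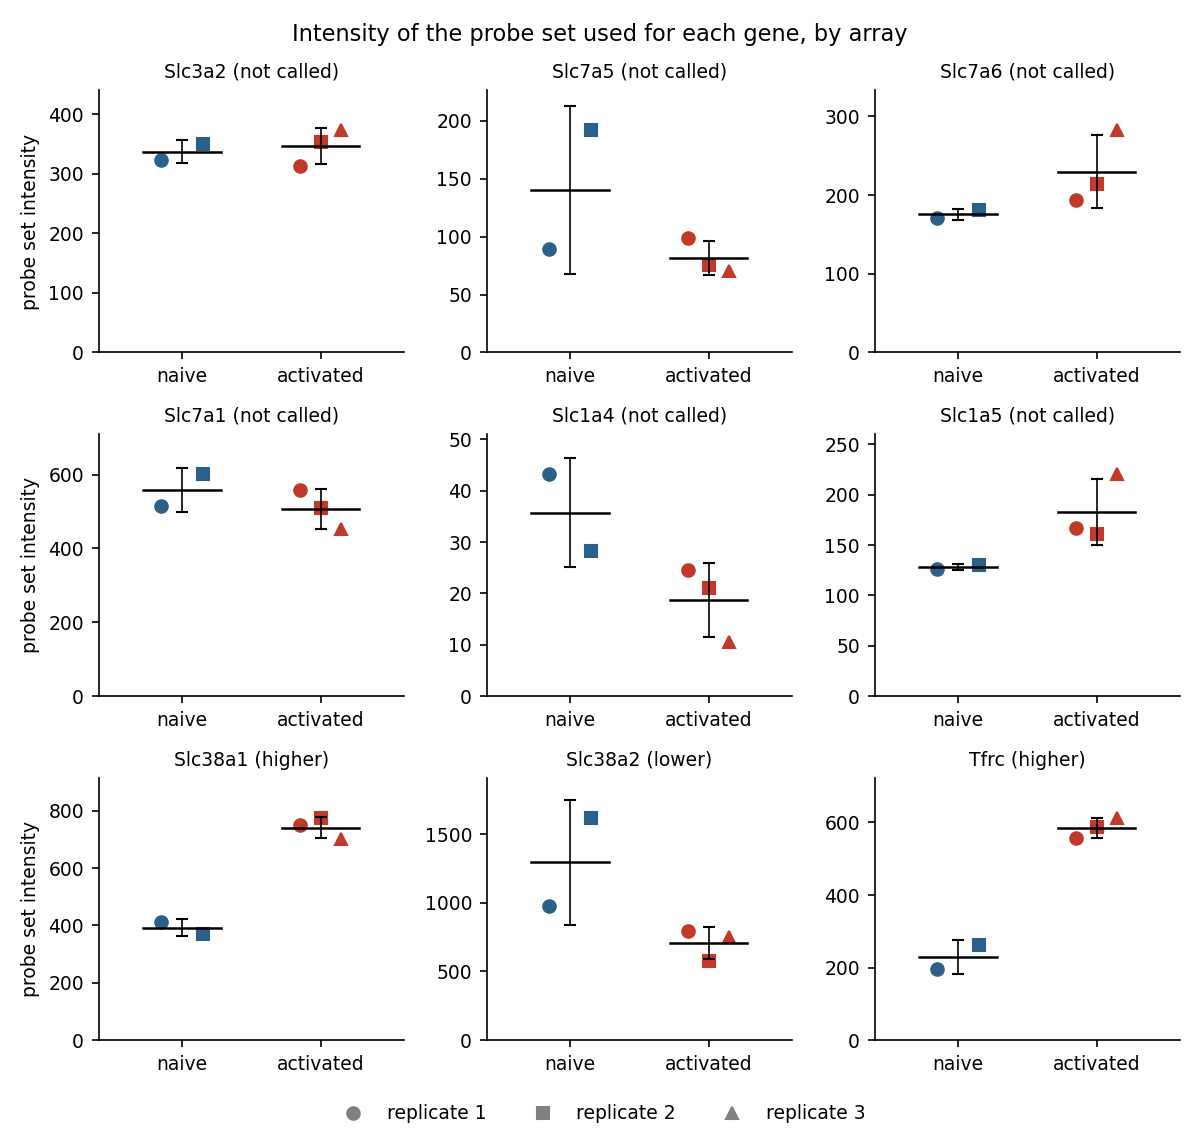
Intensity (linear scale, y axis from 0) of the probe set used for each of the 9 genes, with a point for each array, a bar at the group mean and an error bar of 1 SD (n = 2 naive, n = 3 activated). Only Tfrc, Slc38a1 and Slc38a2 were called, and Slc7a5 and Slc38a2 show the widest gap between the 2 naive arrays.

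All 10 T cell markers with a probe set lay above the intensity filter on every array, and Cd4 had intensities of 1049.4, 1119.4 and 915.4 in activated cells, against 778.2 and 732.6 in naive cells. Of the 10 markers, Cd5 and Zap70 were called higher, Thy1 was called lower (1489 ± 225, SD, n = 3, against 2570 ± 174, SD, n = 2), and the other 7, Cd4 among them, were not called. Markers of other cell types were not even across arrays: the 15 myeloid markers summed to 4515, 497 and 1470 on activated replicates 1, 2 and 3 and to 821 and 685 on the naive arrays. Likewise 7 NK cell markers summed to 3911 on activated replicate 1, of which Gzma gave 2489.5, and to between 713 and 843 on the other 4 arrays. Of the 6 NK cell markers tested only Eomes was called, higher at 696.4, 281.6 and 440.9 against 154.9 and 43.4. Neutrophil and dendritic cell markers were also highest on activated replicate 1, with sums of 993 and 3611, against 65.2 to 130 and 191 to 447 on the other arrays. The 2 CD8 chains summed to between 271 and 406 on the activated arrays and to 852 and 1040 on the naive ones. Most of this was Cd8b1, called lower at 326.5, 246.8 and 275.0 against 797.6 and 995.7. Cd8a overlapped, at 79.2, 24.4 and 18.7 against 54.0 and 44.6, and was not called. Exocrine pancreas markers summed to between 193 and 239 on the activated arrays and to 336 and 320 on the naive ones. Cela3b and Ctrb1 were called lower. Ctrb1 lay above the filter on the naive arrays alone, so it entered the test through the group in which it was high. Prss2, the brightest of these markers, went the other way, at 131.1, 160.4 and 151.0 against 97.2 and 82.5, and was not called. Of 5 tested B cell markers only Cd22 was called, higher at 59.7, 92.6 and 90.9 against 30.7 and 20.5. The other tested ones, Ms4a1, Cd79a, Pax5 and Blk, overlapped between the groups and lay between 2.0 and 27.5 over all arrays. Red cell precursors are rich in Tfrc, and the 8 erythroid markers with a probe set summed to between 101 and 119 on the activated and to 105 and 137 on the naive arrays, with 0 of the 4 tested called. Of 8 tested plasma cell markers 4 were called higher, beside 6.36% of all tested genes. They were Irf4, Pou2af1, Tnfrsf13b and Derl3, which activated lymphocytes can also express. Derl3 lay above the filter on the activated arrays alone, so it entered the test through the group in which it was high. Xbp1 was bright and overlapped (1145 ± 73.4, SD, n = 3, against 1190 ± 104, SD, n = 2). Sdc1, Jchain, Mzb1 and Tnfrsf17 lay between 1.5 and 31.0 over all arrays. Of these, Sdc1 went the other way, at 7.8, 4.8 and 1.5 against 21.2 and 21.1, and was not called. It lay above the filter on the naive arrays alone. The ratio of 3' to 5' signal of the actin control ran from 1.19 to 1.29 on the activated arrays and was 1.42 and 1.78 on the naive ones. The part of these differences in the results was not tested.

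Of the 9 genes, 6 have an entry in the RefSeq promoter table for GRCm38.p6, and Slc7a5, Slc1a5 and Slc38a1 have none there. The windows run from 250 bases before to 50 after a start, and the most upstream one was used. Tfrc and Slc38a2 are shown because they are the called genes with an entry, as the 250 bases before the start. Slc1a4 is shown as the only one whose window held the amino acid response core, as 30 bases around it. Capitals mark matches to the motifs searched, on either strand.

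Tfrc, chr16:32608646-32608895, plus strand: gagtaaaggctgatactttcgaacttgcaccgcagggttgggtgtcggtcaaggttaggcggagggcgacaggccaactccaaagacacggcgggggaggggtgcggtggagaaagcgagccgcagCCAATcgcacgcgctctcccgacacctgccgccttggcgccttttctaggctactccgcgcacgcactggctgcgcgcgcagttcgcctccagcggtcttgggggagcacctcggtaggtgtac
Slc38a2, chr15:96699729-96699978, minus strand: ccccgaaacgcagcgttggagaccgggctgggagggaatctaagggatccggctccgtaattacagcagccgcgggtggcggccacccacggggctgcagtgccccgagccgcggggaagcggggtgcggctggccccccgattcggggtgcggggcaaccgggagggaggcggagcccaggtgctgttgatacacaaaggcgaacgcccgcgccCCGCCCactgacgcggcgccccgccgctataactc
Slc1a4, chr11:20332699-20332728, minus strand: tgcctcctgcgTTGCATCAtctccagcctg

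The 5 motifs were the Myc-type E-box CACGTG, the amino acid response core TGATGNAA, the GC box GGGCGG, the CCAAT box and the TATA box TATAAA. The Tfrc window held a CCAAT box from -124 to -120 relative to the start, and the Slc38a2 window held a GC box on the opposite strand from -35 to -30. In Slc1a4 the response core lay on the opposite strand, with 4 bases before and 4 after the start. Of all 32851 windows of this length in the table, 3.97% held the response core, 7.15% an E-box, 35.7% a GC box, 37.4% a CCAAT box and 13.6% a TATA box. The E-box and the TATA box were in 0 of the 6 windows, the GC box was in 5 and the CCAAT box in 3. A match is a description of the letters and shows no binding.

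Tfrc had the largest change of the 9. Its brightest probe set read 557.2, 588.4 and 612.2 in activated cells, against 196.3 and 262.5 in naive cells. The groups were far apart, and the activated arrays lay within 1.10-fold of each other. The log2 difference (activated minus naive, on the scale of log2(intensity + 16)) was 1.31 ± 0.17 (SE; adjusted p = 7.8e-04) in limma's moderated test over all genes. The rise was called under each of the 16 alternative settings tried, with values from 1.11 to 1.50.

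Each further Tfrc probe set was higher on all 3 activated arrays than on both naive arrays. The second brightest read 107.1, 81.6 and 110.7 against 31.8 and 14.8, a log2 difference of 1.58 ± 0.25 (SE; adjusted p = 0.0041 over all probe sets). The dimmest read 18.0, 23.5 and 27.6 against 6.7 and 2.0, at 0.94 ± 0.26 (SE, adjusted p = 0.056). It lay above the intensity filter on the 3 activated arrays alone, so it entered the test through the group in which it was high.

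The array also holds 3 control probe sets for Tfrc, designed along the transcript to judge RNA integrity, which were left out of the fit with all other array controls. The one at the 3' end read 60.2, 61.3 and 82.5 in activated cells, against 13.8 and 13.0 in naive cells. The one in the middle read 19.9, 10.8 and 20.2 against 1.2 and 2.0, and the one at the 5' end 21.9, 20.3 and 27.1 against 1.5 and 4.4. The naive values of the middle and 5' probe sets were below the filter intensity, which ran from 10.5 to 13.4 among the arrays, so they give no fold. With the 3 added to the fit, a choice made after seeing the data, the log2 fold change at the 3' end was 1.50 (adjusted p = 0.003). The middle and 5' probe sets were above the filter on 2 and 3 arrays, all of them activated, so they entered that fit through the group in which they were high, and their fitted values are not given.

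**Figure D2:**
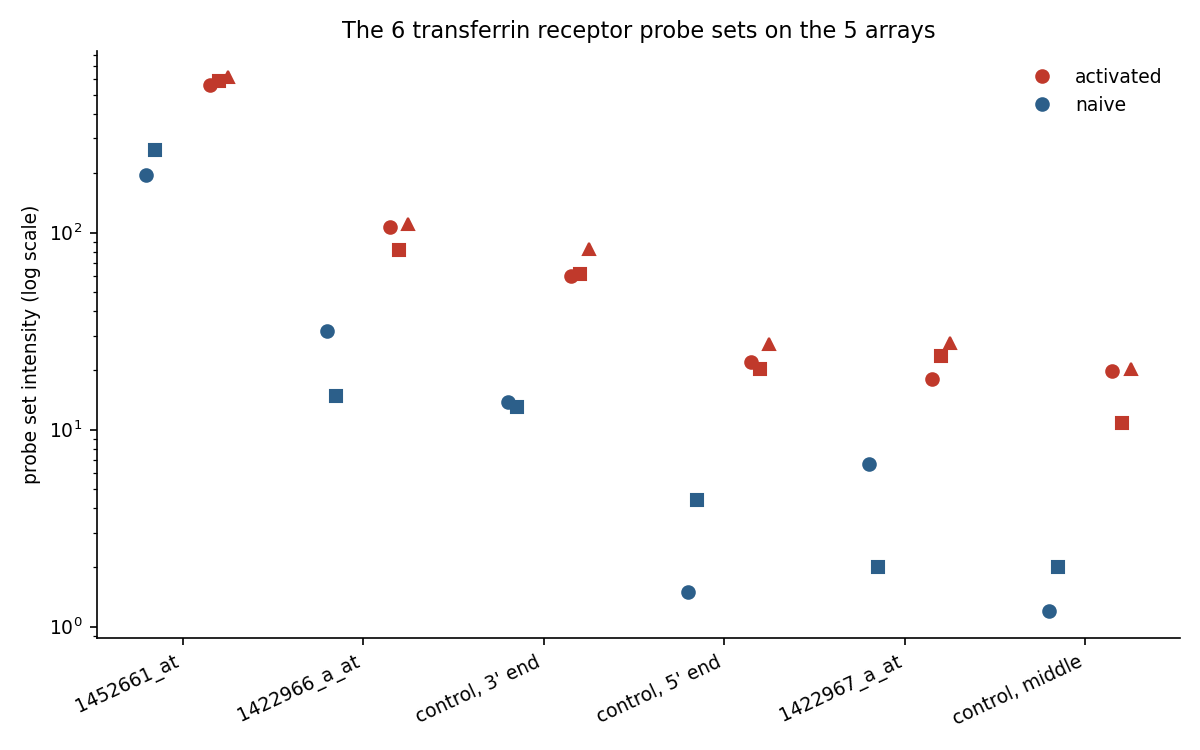
Intensity (log scale) of the 3 regular and 3 control probe sets of Tfrc on the 3 activated (red) and 2 naive (blue) arrays, with circles, squares and triangles for replicates 1, 2 and 3. In each probe set the activated arrays lie above both naive arrays, from 557.2 to 612.2 against 196.3 and 262.5 in the brightest.

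Of 46 genes of iron uptake, storage and use on a list, 36 were tested, of which 1 was called higher and 0 lower. Their median log2 fold change was 0.08, beside -0.03 over all 12873 genes, of which 6.36% were called higher and 4.14% lower. The riser was Hscb, a co-chaperone of iron-sulfur cluster assembly, with 238.6, 303.4 and 186.8 on activated and 138.5 and 106.2 on naive arrays, a log2 fold change of 0.89 (adjusted p = 0.027). Its call was lost when activated replicate 1 (0.89) or 2 (0.73) was left out, and also for naive replicate 1 (1.06) or 2 (0.72).

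Genes that act beside Tfrc are named here for their roles, after their values were seen. The iron regulatory proteins, which bind and stabilise Tfrc mRNA when iron is low, are Aco1 and Ireb2. Mean Aco1 intensity was 615 ± 170 (SD, n = 3) on activated arrays, compared with 471 ± 89.9 (SD, n = 2) on naive ones, and the log2 difference of 0.35 was not called (adjusted p = 0.39). For Ireb2 the log2 difference was -0.17 (adjusted p = 0.63). Fth1, the ferritin heavy chain that stores iron, read 3048 ± 845 (SD, n = 3) and 3563 ± 445 (SD, n = 2), at -0.25 (adjusted p = 0.54). Slc11a2, which moves iron out of the endosome, was at -0.16 (adjusted p = 0.71). For none of these 4 did the groups separate.

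The sodium-coupled carriers Slc38a1 and Slc38a2, close relatives that both import glutamine, moved in opposite directions. Slc38a1 read 748.7, 774.4 and 699.9 in activated cells, against 412.3 and 370.3 in naive cells. In both groups the highest array was 1.11-fold above the lowest, and the groups did not overlap. The log2 difference was 0.89 ± 0.15 (SE; adjusted p = 0.004), and this gene-level call held under each of 16 alternatives, from 0.82 to 0.97. Its second probe set read 696.2, 683.2 and 463.4 against 385.4 and 237.1, at 0.96 ± 0.25 (SE, adjusted p = 0.042 over all probe sets). In the fit over probe sets, the first lost its call without activated replicate 2 (0.86) or naive replicate 2 (0.82). The second lost it when activated replicate 1 (0.86) or 2 (0.87) was left out, and also in the absence of naive replicate 2 (0.63).

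Slc38a2 read 795.5, 574.5 and 750.4 in activated cells, against 972.8 and 1616.3 in naive cells. All activated arrays were below both naive arrays, but naive replicate 2 was 1.66-fold above naive replicate 1. The log2 difference was -0.83 ± 0.23 (SE; adjusted p = 0.045 over all genes, and 0.062 over all probe sets). The call was thus close to the threshold, and it was lost without any of the 3 activated arrays, at -0.92, -0.69 and -0.88 for replicates 1, 2 and 3, and, at -0.47, without naive replicate 2. With naive replicate 1 left out instead, it was -1.19 and called. The second probe set gave a like difference with a tighter naive group: 345.0, 362.8 and 275.4 against 553.2 and 662.8, at -0.86 ± 0.19 (SE, adjusted p = 0.02 over all probe sets). That call also was lost without any activated array or naive replicate 2, with values from -0.94 to -0.74. The third probe set was dim, at 27.4, 28.1 and 23.7 against 38.1 and 22.2, and gave -0.10 (adjusted p = 0.86).

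Slc3a2, the heavy chain of the CD98 complex, read 312.9, 353.8 and 372.6 in activated cells, against 323.7 and 350.4 in naive cells, so that the groups overlapped. Its log2 difference was 0.04 ± 0.16 (SE; adjusted p = 0.93). The 95% confidence interval of the difference, -0.32 to 0.39, leaves room for a change of up to about that size in either direction, and Slc3a2 has only 1 probe set here.

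Among its light chains, Slc7a5 read 98.5, 75.4 and 70.4 in activated cells, against 89.0 and 191.5 in naive cells. The naive arrays differed 2.15-fold, and 1 of them lay among the activated ones. The log2 difference was -0.61 ± 0.28 (SE; adjusted p = 0.21), with a 95% confidence interval from -1.23 to 0.01. Naive replicate 2 decided this value: it was -0.12 without that array and -1.10, which was called (adjusted p = 0.033), without naive replicate 1. With either naive array as the reference, the value stayed below 0.

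Slc7a6 leaned the other way. It read 193.7, 213.8 and 282.0 in activated cells, against 170.7 and 180.7 in naive cells, all activated above both naive, with a log2 difference of 0.34 ± 0.19 (SE; adjusted p = 0.31). The second probe set overlapped, with 113.2, 134.2 and 162.8 against 104.3 and 116.5, at 0.26 ± 0.20 (SE, adjusted p = 0.50). Other light chains of the complex were near the filter intensity. Slc7a7, Slc7a8 and Slc7a11 (named for their role, after their values were seen) read at most 21.8 on any array and were not called.

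The brightest probe set of the arginine carrier Slc7a1 read 558.5, 510.7 and 451.6 against 515.2 and 600.7, a log2 difference of -0.14 ± 0.16 (SE; adjusted p = 0.68) with a 95% confidence interval from -0.50 to 0.23. The second read 349.2, 251.1 and 223.4 against 206.5 and 322.7, at 0.06 ± 0.24 (SE, adjusted p = 0.92). The third was dim, from 4.8 to 20.3 over the 5 arrays. The 3 probe sets differed in sign, and all overlapped between the groups.

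The neutral amino acid exchangers of the Slc1 family also differed from each other in direction, without a call. Slc1a5 read 166.7, 161.4 and 220.2 in activated cells, against 126.4 and 130.6 in naive cells. Its second probe set read 55.5, 59.1 and 47.0 against 35.3 and 33.4. In both probe sets every activated array was above both naive arrays, with log2 fold changes of 0.45 ± 0.19 (SE, adjusted p = 0.17 over all genes) and 0.47 ± 0.21 (SE, adjusted p = 0.23 over all probe sets). Across the 16 alternatives the difference at gene level ran from 0.32 to 0.52 and was called under 0 of them. With no overlap between the groups, leaving out an array could not have changed its direction.

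Slc1a4 was near the lower limit of what the arrays can read. Its brightest probe set read 24.6, 21.0 and 10.6 in activated cells, against 43.2 and 28.2 in naive cells. Every activated array was below both naive arrays, at -0.58 ± 0.27 (SE, adjusted p = 0.23). The size of this value depends on the pseudocount: it was -0.27 with 64 and -0.94 with 1. The 2 other probe sets, at 1.3 to 13.8 over the arrays, were not tested.

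Over the probe sets as a whole, 4 of the 18 tested were called higher and 1 lower, against 4.80% and 2.94% of all 29240 tested probe sets. On 8 of the 18 all activated arrays were above both naive arrays and on 3 all were below, 1 of the 8 being the dim Tfrc probe set that entered through its high group. The same held for 18.8% and 20.3% of all tested probe sets. The 8 were 3 of Tfrc and 2 each of Slc38a1 and Slc1a5, with 1 of Slc7a6. Probe sets of a gene share their samples and often their transcript, so they are not separate evidence.

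**Figure D3:**
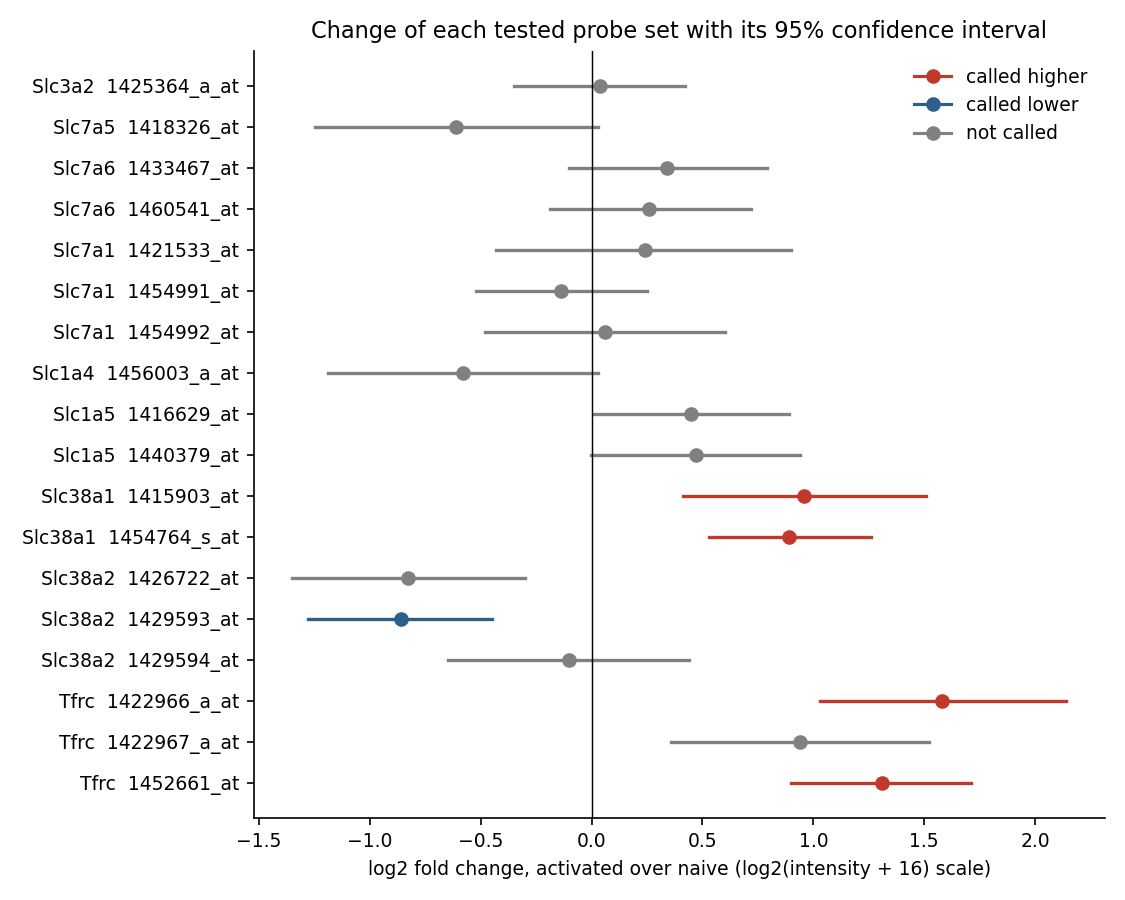
Log2 fold change (x axis, on the scale of log2(intensity + 16)) of the 18 tested probe sets of the 9 genes, with the 95% confidence interval of the fit over all probe sets. Red marks the 4 called higher, blue the 1 called lower and grey the 13 not called; the intervals of the 3 Slc7a1 probe sets and that of Slc3a2 span 0.

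The arrays also differed in the bioC hybridisation control. The mean log2 bioC signal was 7.53 on activated replicate 3 and 7.80 on naive replicate 2, and from 9.34 to 9.52 on the other 3 arrays. For the 3 called genes the groups did not overlap, so the sign on each side of this split is fixed and only the size is informative. Between activated and naive arrays, the log2 difference of the main Tfrc probe set was 1.17 on the low side and 1.47 on the high side. For Slc38a1 it was 0.89 and 0.86. For Slc38a2 it was -1.09 and -0.51. Slc7a5 differed most between the sides, at -1.26 on the low and -0.04 on the high side. Each low-side value rests on 1 array per group and each high-side value on 2 activated arrays and 1 naive array.

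Without activated replicate 1, which had the highest myeloid and NK cell sums, Tfrc (1.34) and Slc38a1 (0.89) were still called, and Slc38a2 had -0.92 (adjusted p = 0.062). Activated replicate 3 also had a myeloid sum above those of the naive arrays, and without it Tfrc was at 1.28 and Slc38a1 at 0.93, both called. The part of these cells in the results was not tested.

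Of 50 other plasma membrane and lysosomal amino acid transporters on a list 48 had a probe set with 1 gene symbol, 31 were bright enough to test, 1 was called higher and 3 lower. These 4 of 31 compare with 6.36% of all tested genes called higher and 4.14% lower. The median log2 fold change of the 31 was -0.16. The riser was Slc36a4, a high-affinity carrier of proline and tryptophan, which read 91.4, 124.5 and 129.7 on activated against 64.2 and 43.5 on naive arrays, at 0.91 (adjusted p = 0.025). Slc43a2 (LAT4), which lets large neutral amino acids pass down their gradient, fell from 206.6 and 266.5 on naive to 132.7, 118.9 and 103.1 on activated arrays, at -0.91 (adjusted p = 0.011). Slc16a10 (TAT1), a carrier of aromatic amino acids, read 64.9 and 54.1 on naive and 20.9, 29.4 and 13.9 on activated arrays, at -1.03 (adjusted p = 0.024). The third faller, Slc17a9, at -1.15 (adjusted p = 0.03), is known as a vesicular nucleotide transporter and stands on the list although it does not carry amino acids. None of these 4 calls held with every array left out in turn. Slc36a4 lost its call without activated replicate 2 (0.86) or 3 (0.83) or naive replicate 2 (0.70), and Slc43a2 without activated replicate 2 (-0.91) or naive replicate 2 (-0.74). Slc16a10 lost it when activated replicate 1 (-1.03) or 3 (-0.88) was left out, or either naive array (-0.93 and -1.13 for replicates 1 and 2), and Slc17a9 without activated replicate 1 (-0.95) or 3 (-1.19) or naive replicate 1 (-0.74). The mean over all probe sets was -0.19 for Slc43a2 and -0.74 for Slc16a10, and neither was called.

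In the amino acid response, Eif2ak4 senses uncharged tRNA and raises the transcription factor Atf4. Of 34 genes listed, 30 were tested, 3 were called higher, 3 lower and 24 not called, with a median log2 fold change of -0.10. Over all genes tested the shares were 6.36% and 4.14%, and such small counts show nothing particular to the list. Atf4 itself read 264.3, 421.9 and 561.4 on activated arrays and 649.1 and 1224.7 on naive arrays, at -1.13 ± 0.32 (SE, adjusted p = 0.047). Trib3, an inhibitory partner of Atf4, read 17.0, 24.1 and 27.3 against 109.9 and 114.0, at -1.73 ± 0.21 (SE, adjusted p = 5.5e-04). Ddit3, the stress factor CHOP, fell by 0.68 (adjusted p = 0.026). The Atf4 call was lost without activated replicate 1 (-0.85) or 2 (-1.18) or naive replicate 2 (-0.51), and with the mean of its probe sets (-0.57). The Ddit3 call was lost when activated replicate 2 (-0.63) or 3 (-0.68) was left out, or either naive array (-0.63 and -0.73 for replicates 1 and 2), and the mean of its probe sets was -0.13. Trib3 was called with each array left out. Atf4 and Slc38a2 had their highest value on the same array, naive replicate 2, and so did Slc7a5, as seen after the values were known. Trib3 was also highest there, whereas Ddit3 was highest on naive replicate 1 (274.9, against 254.1 on naive replicate 2). How common a highest value on that array is over all genes was not tested.

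The 3 risers of that list were Ddit4, Psat1 and Eif2ak1. Ddit4 (REDD1), which restrains mTORC1, read 882.4, 990.4 and 860.2 against 449.5 and 417.6, at 1.04 (adjusted p = 0.0017). Psat1, an enzyme of serine synthesis, was at 0.83 (adjusted p = 0.0088), and Eif2ak1, the heme-regulated kinase, at 0.62 (adjusted p = 0.047). Ddit4 was called with each array left out, whereas Psat1 lost its call without activated replicate 2 (0.79) or naive replicate 2 (0.72). Eif2ak1 lost it whichever array was left out, with values from 0.44 to 0.65, and the mean of its probe sets was 0.12 and not called. Asns, asparagine synthetase, a standard Atf4 target named after its values were seen, was at 0.47 (adjusted p = 0.31).

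Of 45 genes listed for amino acid sensing by mTORC1, 42 were tested, 4 were called higher and 1 lower, and the median log2 fold change was -0.09. The list also holds other parts of the pathway, such as Mtor, Rheb and the TSC complex. The shares over all tested genes were 6.36% higher and 4.14% lower, and such small counts show nothing particular to the list. Tbc1d7, the third subunit of the TSC complex, read 33.9, 63.2 and 58.1 on activated arrays and 2.8 on each naive array, at 1.82 (adjusted p = 0.0017), a size that the pseudocount sets in part. Both naive values are below the filter intensity, so the gene entered the test through the activated arrays. Kptn, of the KICSTOR scaffold, was at 1.26 (adjusted p = 0.019), the leucine sensor relative Sesn3 at 0.85 (adjusted p = 0.01) and the Ragulator subunit Lamtor4 at 0.60 (adjusted p = 0.044). The Rag GTPase Rragd read 54.3 and 68.8 on naive and 20.6, 25.7 and 20.7 on activated arrays, at -1.01 (adjusted p = 0.015). Its call was lost without naive replicate 2 (-0.88), and the mean of its probe sets was -0.29. Kptn lost its call without activated replicate 2 (1.26) or 3 (1.21) or naive replicate 1 (0.71), and Sesn3 without activated replicate 2 (0.83) or naive replicate 1 (0.75). Lamtor4 lost it whichever array was left out, from 0.51 to 0.69.

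Among 43 genes of amino acid metabolism 34 were tested, 3 were called higher and 2 lower, with a median log2 fold change of 0.17. Beside them stand 6.36% of all tested genes called higher and 4.14% lower, so these counts also show nothing particular to the list. Bcat1, the cytosolic enzyme that transaminates the leucine and other branched-chain amino acids LAT1 imports, read 68.3, 80.9 and 82.8 on activated arrays and 8.4 and 7.2 on naive arrays. The naive values are below the filter intensity, so the gene entered the test through the activated arrays. Its log2 difference was 1.97 ± 0.21 (SE; adjusted p = 2.4e-04), and 0.51, not called, with probe sets that have no shared-sequence suffix. Odc1, which makes putrescine from ornithine, was at 0.92 (adjusted p = 0.015), and Ahcy, which clears the product of methylation reactions, at 0.85 (adjusted p = 0.0059). The fallers were Ass1, which makes the precursor of arginine from citrulline, at -1.24 (adjusted p = 0.0047), and Glul, glutamine synthetase, at -0.66 (adjusted p = 0.032). Glul read 444.1 and 502.4 on naive and 254.1, 317.4 and 312.0 on activated arrays. Its call was lost when activated replicate 1 (-0.56) or 2 (-0.71) was left out, or either naive array (-0.75 and -0.57 for replicates 1 and 2). The mean of the Glul probe sets was -0.31 and was not called. Odc1 lost its call without naive replicate 1 (0.68) and Ahcy without naive replicate 2 (0.85), while Ass1 was called with each array left out.

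**Figure D4:**
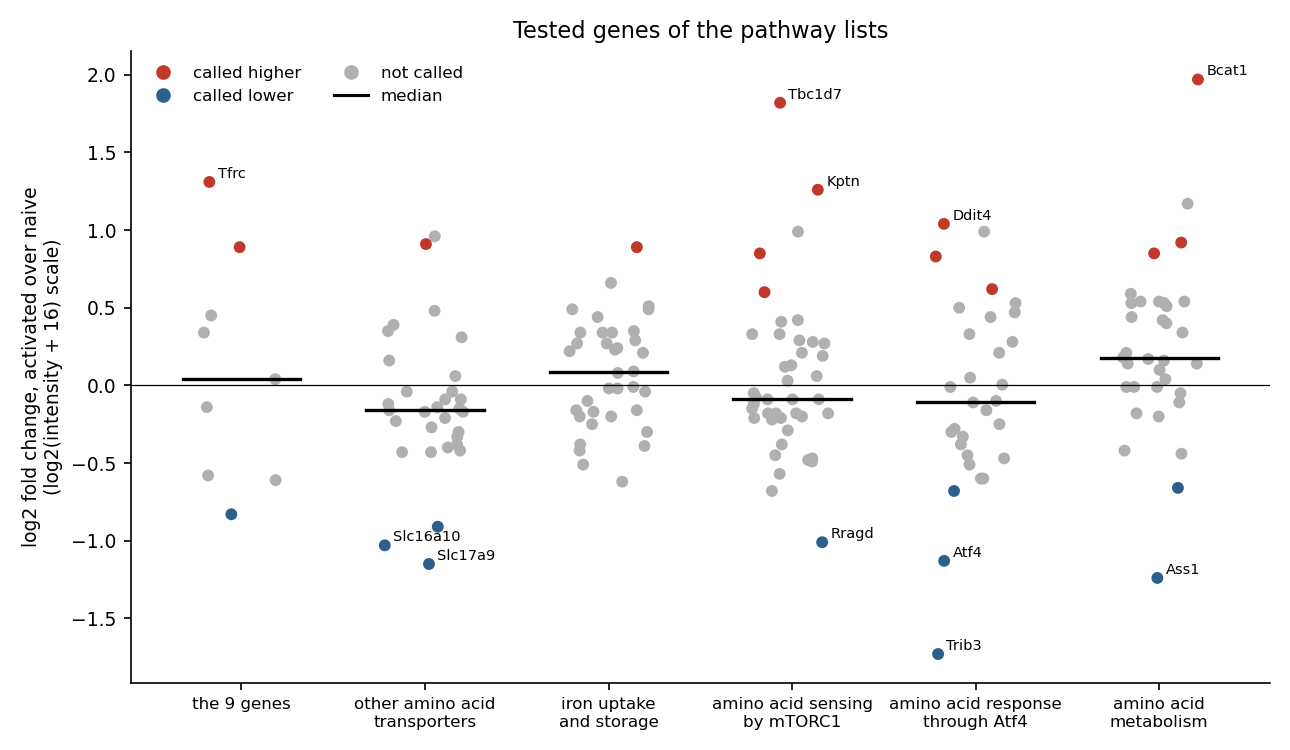
Log2 fold change (y axis, on the scale of log2(intensity + 16)) of the 9 genes and of the tested genes of 5 pathway lists, a point per gene, with a black line at each median. Red points were called higher and blue lower, and called genes with a change beyond 1 are named. List medians lie between -0.16 and 0.17, and most genes of each list are grey.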

How the data were processed

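Per the labels, biotinylated cRNA from 6 µg of total RNA was hybridised to Affymetrix arrays. The authors deposited 1 linear intensity per probe set and array for 45101 probe sets. For the scanner software, the summary method and the scaling: not given in the sources used here. Gene names came from the array platform's annotation. Values were transformed as log2(intensity + 16). For genes, the probe set with 1 symbol and the highest mean was used, if 2 or more of the 5 arrays had it above their 40th percentile. limma 3.58.1 (R 4.3.3; lmFit, then eBayes with an intensity trend) was fitted over all genes, and separately over all probe sets, as a two-sided test, and p-values were adjusted by Benjamini and Hochberg's method (threshold 0.05). The code was tested on simulated data: with the raw residual spread of each gene as noise, recovery of the planted changes missed the threshold set for it, after which limma's moderated spread was used, an easier test; the fit was not altered, and the test says little about power. Each array is a separate experiment on pooled mice, and 3 against 2 arrays limits the precision. Between pairs of arrays, up to 0.947% of the values were identical. Each member was named whatever its result, and up to 4 called genes per direction in each list. The members, lists and rules were chosen with earlier results of these data known. Of the list entries, those without a probe set of 1 symbol were not analysed here. Promoter windows were first searched over 250 bases and then over 300, and 3 of the 5 motifs (GC, CCAAT and TATA boxes) were added after the values were seen. Alternatives were quantile normalization, other filters and pseudocounts, other probe set choices, no trend, blocks and leaving out each array. Adding the Tfrc control probe sets was also counted as an alternative, although it alters the fit over probe sets alone and leaves every gene value as in the main fit.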

Additional observations from a re-analysis of the deposited data

How the results depend on the processing

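The rises of Tfrc and Slc38a1 were called under each of 16 alternatives, and the fall of Slc38a2 under 10 of 16. The direction of Slc38a2 was kept in all 16. Its groups did not overlap, so leaving out an array or changing the pseudocount, filter or trend could not have reversed it. Among the 16 was the setting with the Tfrc control probe sets added, which leaves the fit over genes as it was and so could not change these calls. With no filter, genes called lower numbered 349, and probe sets called higher and lower numbered 870 and 510. With the bioC split as a block, genes called lower numbered 859 and probe sets called lower 1486. Of the 9 genes, the count called lower was 0 with no filter and 0 without the intensity trend. Of their probe sets, the count called lower was 2 with quantile normalization, 2 with the bioC split as a block and 0 without the intensity trend.

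In the lists, no filter left 0 other transporters higher and 1 lower, 0 iron genes higher, and 2 mTORC1 genes higher and 0 lower. The bioC split as a block gave 2 iron genes higher and 1 lower, 3 mTORC1 genes lower and 7 metabolic genes higher. The mean of all probe sets gave 1 other transporter lower, 2 iron genes higher, 0 mTORC1 genes lower, and 1 gene lower in each of the amino acid response and metabolism lists. Probe sets without a shared-sequence suffix, and the fit without the intensity trend, each left 1 gene lower in the response list and 1 in the metabolism list, and the latter left 0 iron genes higher. The filter at the 60th percentile gave 2 iron genes higher.

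When each array was left out in turn, genes called higher ranged from 462 to 704 and lower from 181 to 494, and probe sets from 723 to 1331 and from 324 to 645. Of the 9 genes 0 to 2 were called lower, and of their probe sets 2 to 4 higher and 0 to 3 lower. List counts ranged from 0 to 1 higher and 1 to 2 lower for other transporters, 0 to 1 higher for iron, 1 to 4 higher and 0 to 2 lower for mTORC1, 1 to 2 higher and 1 to 2 lower for the response, and 1 to 2 lower for metabolism. A lone naive array was then assumed to vary like the other arrays. Values that changed sign belonged to genes and probe sets that were not called: Slc3a2 ranged from -0.02 to 0.10, the dimmest Slc7a1 probe set from -0.17 to 0.64 and the second brightest from -0.24 to 0.36, and the dimmest Slc38a2 probe set from -0.35 to 0.15. With the mean of all probe sets, Slc7a1 was at 0.05, Slc11a2 at 0.06 and Slc7a7 at 0.13. Slc7a7 ranged from -0.58 to 0.49 with each array left out. The cause of these changes was not tested.

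Deviations of same-numbered arrays correlated at 0.17 for replicate number 1 and -0.13 for number 2. With only 2 naive arrays, these values cannot show whether the numbers pair the samples. With the replicate block, 974 genes were called higher and 796 lower, against 819 and 533 in the main fit. Under that block Slc3a2 was at -0.02, and 5 mTORC1 genes were called lower.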
